A study of Bos taurus with 8 samples.

Results

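Coagulation and fibrinolysis are proteolytic cascades that meet on the surface of blood monocytes. Tissue factor on an activated monocyte binds the protease factor VIIa and starts the clotting cascade, which ends in fibrin. The plasminogen system works the other way, since urokinase bound to its receptor turns plasminogen into plasmin, which dissolves fibrin, and serpin inhibitors hold urokinase in check.

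The genes described were 5 of the 21861 genes in the scRNA-seq tables, taken by their names. They were chosen with earlier results of these data known, so the counts of members called are a description. They were F3 (tissue factor, ENSBTAG00000007101), PLAU (urokinase, ENSBTAG00000005947), PLAUR (the urokinase receptor, ENSBTAG00000013125), SERPINB2 (plasminogen activator inhibitor 2, ENSBTAG00000023198) and THBS1 (thrombospondin 1, a matrix glycoprotein of platelets and monocytes, ENSBTAG00000002006). In scATAC-seq, F3, PLAU and PLAUR were followed at every treatment by the same identifiers.

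Blood came from 4 female Holstein cattle aged 2 years in lactation, was mixed into 1 pool and was divided into 4 parts. One part received no LPS, the endotoxin of Gram-negative bacteria. The others stood at 37 °C with LPS at 2 µg/ml, 1 for 2 h, 1 for 4 h and 1 for 8 h, before peripheral blood mononuclear cells (PBMCs) were isolated. Both assays were run once on each part (4 scRNA-seq and 4 scATAC-seq libraries), so the animals could not be separated and a difference between treatments cannot be told apart from a difference between libraries. No incubation time was given for the part without LPS, so LPS and time in incubation cannot be told apart either. All intervals below are 95% intervals that cover counting error only.

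Values in a row follow the order no LPS, 2 h, 4 h, 8 h. After filtering, 7821, 9865, 7387 and 3411 cells were kept, with 16657841 to 47875879 UMIs (unique molecular identifiers, each marking 1 captured transcript) per library. Any pair of scRNA-seq libraries shared 8 to 24 cell barcodes. CD14/CSF1R-positive cells had at least 2 UMIs of the monocyte receptor genes CD14 and CSF1R together, and CSF3R-positive cells had at least 2 UMIs of CSF3R, the G-CSF receptor gene of neutrophils and monocytes. Cells that met both minima, at most 26 per library in the first class, went to the class with more UMIs. Each class was summed per library and scaled to counts per 1e6 UMIs (CPM), and a gene was called higher or lower when it was at least 2-fold from no LPS on the log2(CPM + 1) scale with at least 20 UMIs over both libraries. All 3 comparisons used the same no LPS library.

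CD14/CSF1R-positive cells numbered 921, 425, 179 and 138, or 11.8%, 4.31%, 2.42% and 4.05% of the cells. Of 13 monocyte marker genes, 11 or 12 had a UMI in each library, and their summed level was 6409.95, 4063, 3918 and 4719 CPM, with CCR2 at 0 throughout. The 13 include CD14 and CSF1R, whose detection was fixed by the class rule. CD14 alone was at 2184, 1295, 1675 and 1627 CPM. The class was not uniform over time. In an unsupervised clustering of all cells into 22 clusters, cluster 9, led by SAA3, SAA2 and SERPINB2, held 94.9%, 83.3%, 70.9% and 38.4% of the class. Cluster 16, in which CSF1R had 1 UMI without LPS and 0 with LPS, held 14.8% of it at 2 h and 26.8% at 4 h. Cluster 12, with a median of 1939 UMIs per class cell, held 52.9% at 8 h, where summed T cell markers were 159 CPM (49.0 without LPS) and B cell markers 292 CPM (103 without LPS). The limit of 3000 genes per cell left out 30.5%, 33.0%, 51.0% and 56.5% of the class. Values in cluster 9 and without the limit therefore stand beside the members' levels, cell shares and UMI shares. The members were among the genes clustered, so cluster values are a description.

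CSF3R-positive cells were few and shallow, with 38, 99, 84 and 17 cells and medians of 1157 to 2130.0 UMIs. CSF1R and the monocyte gene CD163 had no UMI in this class in any library, and 95.2% to 100% of the class lay in cluster 16. The neutrophil receptor gene CXCR1 was at 573, 331, 542 and 489.9 CPM. The 12 neutrophil markers, of which 11 or 12 had a UMI, summed to 61870.1, 11069.7, 6400.3 and 84835 CPM, so the class was not alike over time. CSF3R, which defines the class, is among the 12, at 1428, 973, 1296 and 1087 CPM. Markers of other cells moved as well, with 4 plasma cell genes at 3590.4, 60.2, 138 and 45.9 CPM and 6 B cell genes at 627, 605, 357 and 214 CPM, and their part in the results for this class was not tested. The 6862, 9341, 7124 and 3256 other cells, mostly with T or B cell genes, made up the rest.

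In CD14/CSF1R-positive cells the clot-starting gene F3 was higher with LPS, and the receptor, the inhibitor and thrombospondin 1 were each lower than without LPS at every time, past 2-fold at the times given here, except that with other scalings of the libraries SERPINB2 (TMM and DESeq2 size factors) and PLAUR (DESeq2 size factors) at 2 h had a log2 ratio just above 0. F3 was called higher at 2 h (1 of 5 members, against 3.83% of the 8690 genes compared) and no member was called lower (12.2% of genes). At 4 h F3 and PLAU were called higher (2 of 5, against 5.89% of genes) and THBS1 lower (1 of 5, against 8.23%). At 8 h SERPINB2 and PLAUR were called lower (2 of 5, against 4.11% of genes), and no member was called higher (10.2%). The median log2 ratio of all genes compared was -0.39, -0.05 and 0.19 at the 3 times of LPS. Relative to that median, the 2 h ratios were 2.49 for F3, 1.16 for PLAU, 0.00 for PLAUR, 0.12 for SERPINB2 and -0.49 for THBS1.

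**Figure D1:**
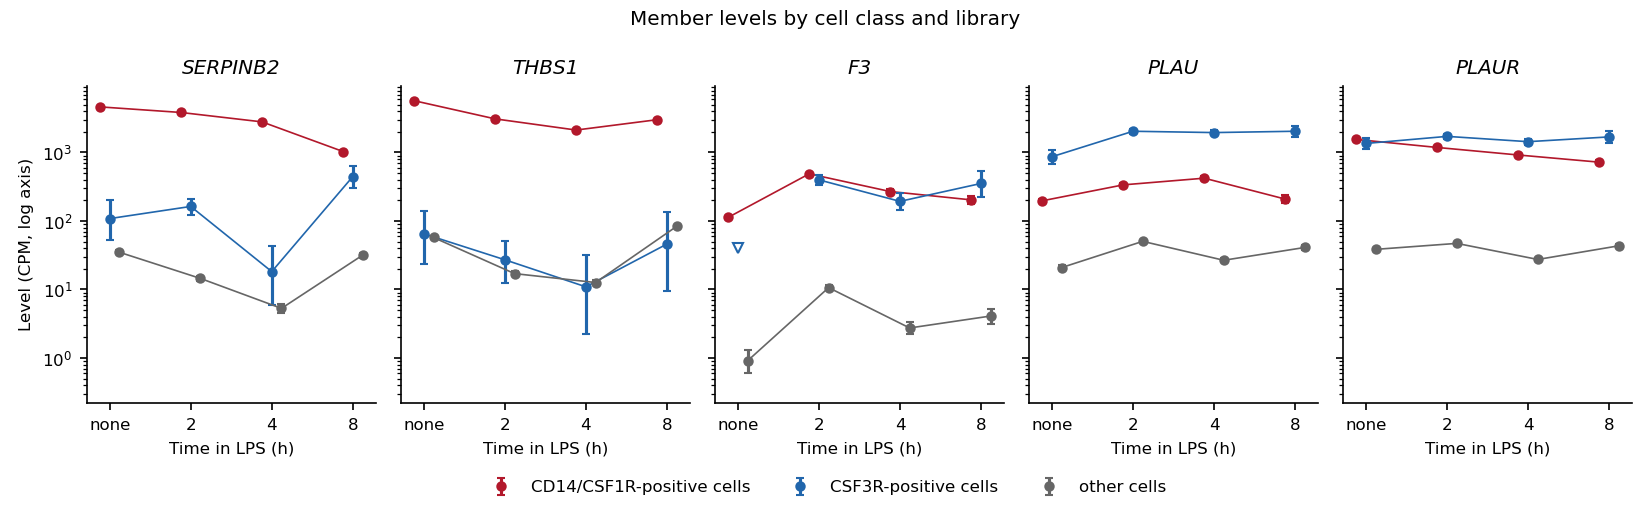
Levels of the 5 members (CPM, log axis) by time in LPS in CD14/CSF1R-positive, CSF3R-positive and other cells. Each point is 1 library and bars are 95% Poisson intervals. An open triangle marks 0 UMIs, drawn at the upper 95% Poisson limit. F3 in CD14/CSF1R-positive cells peaked at 487 CPM at 2 h, SERPINB2 was lowest at 8 h at 1030.1 CPM, and PLAU was higher in CSF3R-positive cells than in the other classes in each library.

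F3 encodes tissue factor, the membrane receptor of factor VIIa. Its level in CD14/CSF1R-positive cells was 113 CPM without LPS (979 UMIs), 487 CPM at 2 h (2522 UMIs), 269 CPM at 4 h (512 UMIs) and 203 CPM at 8 h (193 UMIs). The intervals of these levels, 106 to 120, 468 to 506, 246 to 293 and 175 to 234 CPM, did not overlap. Against no LPS, F3 was 4.32-fold higher at 2 h (4.01 to 4.66), 2.38-fold at 4 h (2.14 to 2.66) and 1.80-fold at 8 h (1.54 to 2.10). At 2 h its log2 ratio was above that of 99.3% of the genes compared. In cluster 9 alone the folds were 4.32 (4.01 to 4.66), 2.39 (2.14 to 2.67) and 2.03 (1.73 to 2.38). With no limit on genes F3 was at 68.9, 304, 125 and 68.7 CPM, so the 2 h call stood, the 4 h call did not, and the 8 h level was that without LPS.

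More cells held an F3 UMI at 2 h and 4 h than without LPS, and at 8 h the share was not told apart from that without LPS. When each cell was thinned to 2000 UMIs so that depth was equal, 13.01% of 761 CD14/CSF1R-positive cells had an F3 UMI without LPS, 47.6% of 378 at 2 h, 29.3% of 150 at 4 h and 16.3% of 92 at 8 h. Without thinning the shares were 29.5%, 70.4%, 56.4% and 28.3%. Thinning left out 160, 47, 29 and 46 shallower cells. The mean share over all ways of drawing the 2000 UMIs was 14.2%, 45.6%, 29.7% and 15.9% in the class, 14.4%, 45.9%, 31.0% and 20.2% in cluster 9, and 11.9%, 38.7%, 21.5% and 12.1% without the limit on genes. In other cells with a CD3 gene, which should lack F3, it was at 0.268, 2.21, 0.688 and 0.843 CPM, far under the CD14/CSF1R-positive class.

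F3 was not detected without LPS in CSF3R-positive cells (0 of 92468 UMIs), where a floor of 3 UMIs lay at 32.4 CPM. With LPS it was at 398 CPM (132 UMIs in 40 of 99 cells) at 2 h, 193 CPM (53 UMIs) at 4 h and 352 CPM (23 UMIs) at 8 h. These levels were 12.3-fold that floor at 2 h, 5.95-fold at 4 h and 10.9-fold at 8 h. The exact intervals of the folds over no LPS began lower, at 9.83, 4.67 and 8.14. Without the limit on genes F3 was at 351, 148 and 135 CPM with LPS, 10.8-fold, 4.55-fold and 4.18-fold the same floor. In the larger cluster 16 the same gene had 0, 516, 152 and 54 UMIs. That was 37.8-fold, 14.2-fold and 17.1-fold the floor of that cluster, with exact intervals from 30.6, 11.4 and 13.4. With LPS the F3 level of CD14/CSF1R-positive cells was 1.22-fold that of this class at 2 h (1.03 to 1.47), 1.39-fold at 4 h (1.05 to 1.88) and 0.576-fold at 8 h (0.373 to 0.931).

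PLAU encodes urokinase, the secreted protease that cleaves plasminogen. In CD14/CSF1R-positive cells it was at 197 CPM without LPS, 336 CPM at 2 h, 421 CPM at 4 h and 208 CPM at 8 h. That is 1.71-fold higher (1.60 to 1.83), 2.14-fold (1.96 to 2.33) and 1.06-fold (0.909 to 1.23), so only the 4 h value passed 2-fold and the 8 h interval included no difference. The 4 h call was not made in cluster 9, where PLAU was at 199, 281, 271 and 208 CPM and 1.37-fold higher (1.23 to 1.51) at 4 h. It was not made without the limit on genes either, where PLAU was at 163, 247, 191 and 137 CPM. Cells of cluster 16, in which PLAU was at 1182 CPM or above, were a larger part of the class at 2 h and 4 h, as given above.

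The highest PLAU levels of the 3 classes were in CSF3R-positive cells in every library. They held 865 CPM without LPS (80 UMIs), 2036 CPM at 2 h (676 UMIs), 1948 CPM at 4 h (535 UMIs) and 2036 CPM at 8 h (133 UMIs). The level was 4.40-fold that of CD14/CSF1R-positive cells without LPS (3.47 to 5.51), 6.06-fold at 2 h (5.54 to 6.63), 4.63-fold at 4 h (4.14 to 5.17) and 9.78-fold at 8 h (7.79 to 12.3). PLAU and F3 were the members called higher in this class at 2 h (2 of the 4 with enough UMIs, against 10.7% of 1906 genes) and at 4 h (2 of 3, against 14.6% of 1800 genes). At 8 h PLAU, F3 and SERPINB2 were (3 of 4, against 8.28% of 882 genes).

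The PLAU calls in CSF3R-positive cells depended on how the cells were taken. The folds were 2.35 (1.86 to 3.01), 2.25 (1.78 to 2.88) and 2.35 (1.77 to 3.15) in the class. In cluster 16, with 154, 500, 316 and 104 cells, PLAU was at 1182, 1946, 1476 and 1386 CPM, and the folds of 1.65 (1.47 to 1.84), 1.25 (1.11 to 1.40) and 1.17 (1.02 to 1.35) did not pass 2. Without the limit on genes the class held 865, 1787, 1374 and 775 CPM, and at 8 h PLAU was lower than without LPS. The excess of PLAU over CD14/CSF1R-positive cells was present in all these readings. The cluster 16 reading is not separate support, since the members were among the genes clustered. PLAU ranked 9 among the genes leading cluster 16 (1648 CPM against 37.3 CPM in the rest).

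PLAUR encodes the membrane-anchored receptor that holds urokinase at the cell surface. In CD14/CSF1R-positive cells it was at 1546 CPM without LPS, 1181 CPM at 2 h, 917 CPM at 4 h and 720.0 CPM at 8 h, in that order downward with intervals that did not overlap. It was 1.31-fold lower at 2 h, 1.69-fold lower at 4 h and 2.15-fold lower at 8 h. In cluster 9 it was 1.33-fold, 1.74-fold and 1.86-fold lower, so the 8 h value did not pass 2-fold there. Without the limit on genes PLAUR was at 1158, 891, 571 and 457 CPM and passed 2-fold lower at 4 h as well as 8 h. The 2 h difference was as large as the median of all genes.

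In CSF3R-positive cells PLAUR was at 1352 CPM (1125 to 1611), 1714 CPM (1576 to 1861), 1434 CPM (1296 to 1583) and 1684 CPM (1384 to 2029.8). No value passed 2-fold from no LPS, and the intervals of all libraries overlapped. The 2 h fold over no LPS was 1.27 (1.04 to 1.55). Without LPS the 2 classes had like levels (CSF3R-positive over CD14/CSF1R-positive 0.874), whereas with LPS CSF3R-positive cells had 1.45-fold, 1.56-fold and 2.34-fold more. Without the limit on genes CSF3R-positive cells held 1352, 1513, 933 and 601 CPM, past 2-fold lower than without LPS at 8 h (log2 ratio -1.17), and were 1.17-fold, 1.70-fold, 1.64-fold and 1.32-fold the CD14/CSF1R-positive level. With a class minimum of 4 UMIs the 8 h log2 ratio was 1.69, so the direction at 8 h changed with how the cells were taken. In cluster 16 PLAUR was at 1587, 1313, 863 and 954 CPM, lower with LPS as in cluster 9, so a higher level with LPS was not seen over that whole cluster.

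**Figure D2:**
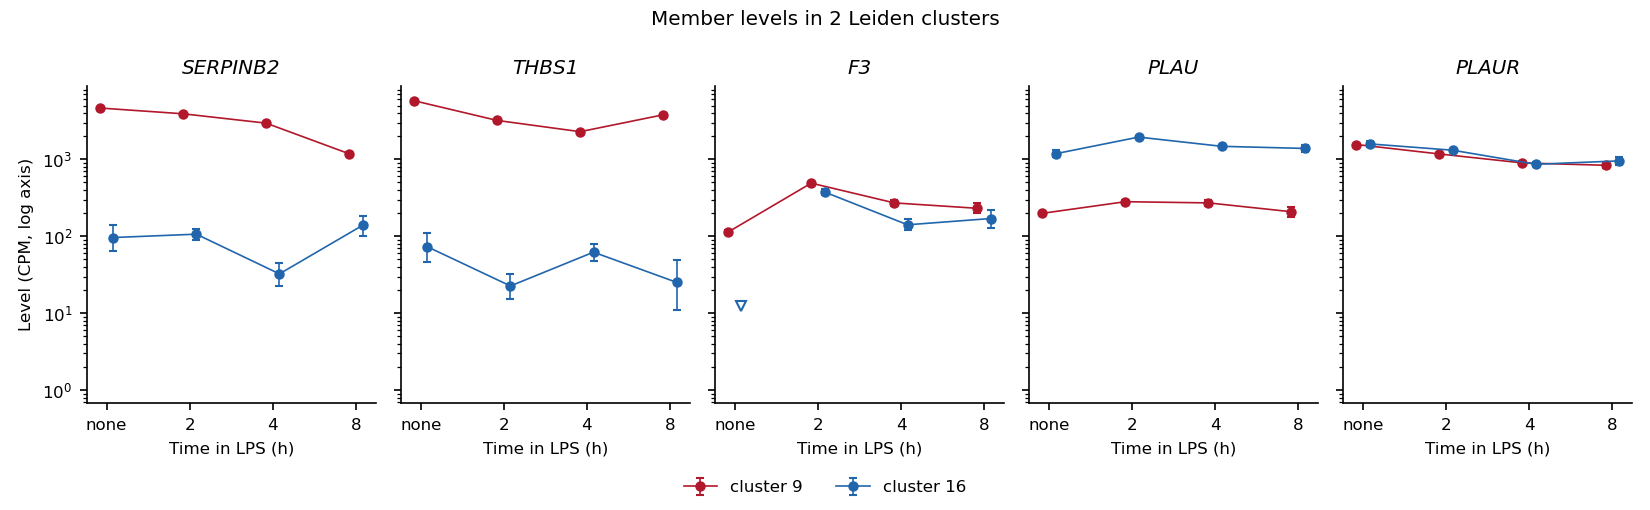
Levels of the 5 members (CPM, log axis) by time in LPS in cluster 9 and cluster 16. Points are single libraries and bars are 95% Poisson intervals. The open triangle, for F3 with 0 UMIs, is drawn at the upper 95% Poisson limit. PLAU lay at 199 to 281 CPM in cluster 9 and 1182 to 1946 CPM in cluster 16, while PLAUR ran close together in both, from 1558 to 837 CPM in cluster 9.

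SERPINB2 encodes plasminogen activator inhibitor 2, a serpin that blocks urokinase. It was at 4619.8 CPM in CD14/CSF1R-positive cells without LPS (40171 UMIs), 3828 CPM at 2 h (19834 UMIs), 2790.1 CPM at 4 h (5320 UMIs) and 1030.1 CPM at 8 h (980 UMIs). Each level lay below the one before it, with intervals that did not overlap. The gene was 1.21-fold lower at 2 h, 1.66-fold at 4 h and 4.48-fold at 8 h, and its 8 h log2 ratio was below that of 99.4% of the genes compared. In cluster 9 it was at 4644, 3907, 2953 and 1179.7 CPM and 3.94-fold lower at 8 h. Without the limit on genes it was at 3277, 2618, 1517 and 761 CPM, past 2-fold lower at 4 h and 8 h.

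SERPINB2 was unevenly spread over the cells. The tenth of CD14/CSF1R-positive cells with the most SERPINB2 UMIs held 44.8%, 42.1%, 68.8% and 85.6% of them, without equal depth. In cluster 9 it was 46.7%, 39.1%, 62.9% and 72.0%. The 8 h rise was not particular to SERPINB2. Without LPS and at 8 h the class values were 71.8% and 81.3% for F3 and 32.5% and 67.5% for THBS1. They were 38.9% and 53.0% for PLAU and 34.4% and 56.9% for PLAUR. After thinning to 2000 UMIs, the share of cells with a SERPINB2 UMI was 74.4%, 70.9%, 50% and 44.6%, so fewer cells held it at 4 h and 8 h. The mean share over all draws was 75.3%, 73.2%, 57.0% and 41.6% in cluster 9 and 72.5%, 68.3%, 52.1% and 46.0% without the limit on genes, where the tenth with the most held 43.8%, 42.4%, 53.8% and 57.1% of the UMIs. At equal depth an F3 UMI was found in 18.2% of the cells with SERPINB2 above the median and 10.5% of the rest without LPS. With LPS the 2 shares were 52.2% against 37.6% (2 h), 40.4% against 24.7% (4 h) and 17.9% against 17.0% (8 h). The intervals of the 2 shares did not touch without LPS (14.3% to 22.6% against 7.71% to 13.9%) and overlapped at 2 h by a narrow margin, at 4 h and at 8 h. In cluster 9 the intervals also parted without LPS (15.3% to 23.6% against 5.58% to 11.3%) and overlapped with LPS. Without the limit on genes they parted without LPS (12.7% to 18.8% against 4.90% to 9.15%) and at 2 h (45.4% to 57.5% against 25.6% to 36.1%). Other pairs were compared in the class too. A THBS1 UMI was in 95.5%, 92.4%, 68.4% and 69.2% of cells with SERPINB2 above the median. The rest had 89.7%, 68.0%, 43.0% and 77.4%, and the intervals parted except at 8 h. Intervals overlapped in every library for F3 split by THBS1, and for PLAU split by SERPINB2, PLAUR or F3.

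In CSF3R-positive cells SERPINB2 rested on 10, 54, 5 and 29 UMIs, or 108, 163, 18.2 and 444 CPM. The 8 h value, called higher, came from 29 UMIs in 3 of 17 cells, and without the limit on genes it was 127 CPM. Cluster 16 gave 96.3, 106, 32.5 and 139 CPM. The level was thus 42.7-fold lower than in CD14/CSF1R-positive cells without LPS, 23.5-fold at 2 h, 153-fold at 4 h and 2.32-fold at 8 h.

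THBS1 encodes thrombospondin 1, which binds the receptors CD36 and CD47 and activates TGF-beta. In CD14/CSF1R-positive cells it was at 5688 CPM without LPS (49459 UMIs), 3088 CPM at 2 h (16000 UMIs), 2120.4 CPM at 4 h (4043 UMIs) and 3003 CPM at 8 h (2857 UMIs). THBS1 was lowest at 4 h, and the 2 h and 8 h intervals (3040.1 to 3136 and 2894 to 3115 CPM) overlapped. It was 1.84-fold lower at 2 h, 2.68-fold at 4 h and 1.89-fold at 8 h. In cluster 9 the level was 5778, 3204, 2287 and 3795 CPM, and without the limit on genes 4548, 2657, 1874 and 2720.1 CPM, both again lowest at 4 h. In both, 8 h was above 2 h. Their intervals did not overlap in cluster 9 (3155 to 3253 and 3661 to 3933 CPM). Without the limit they parted narrowly (2629.3 to 2685.5 and 2686.8 to 2753.8 CPM). The share of thinned cells with a UMI moved alike, at 92.2%, 82.5%, 52.0% and 72.8%, and its mean over all draws was 93.3%, 87.8%, 61.8% and 78.0% in cluster 9 and 92.2%, 83.4%, 64.8% and 79.6% without the limit. CSF3R-positive cells had 6, 9, 3 and 3 THBS1 UMIs, too few to compare.

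**Figure D3:**
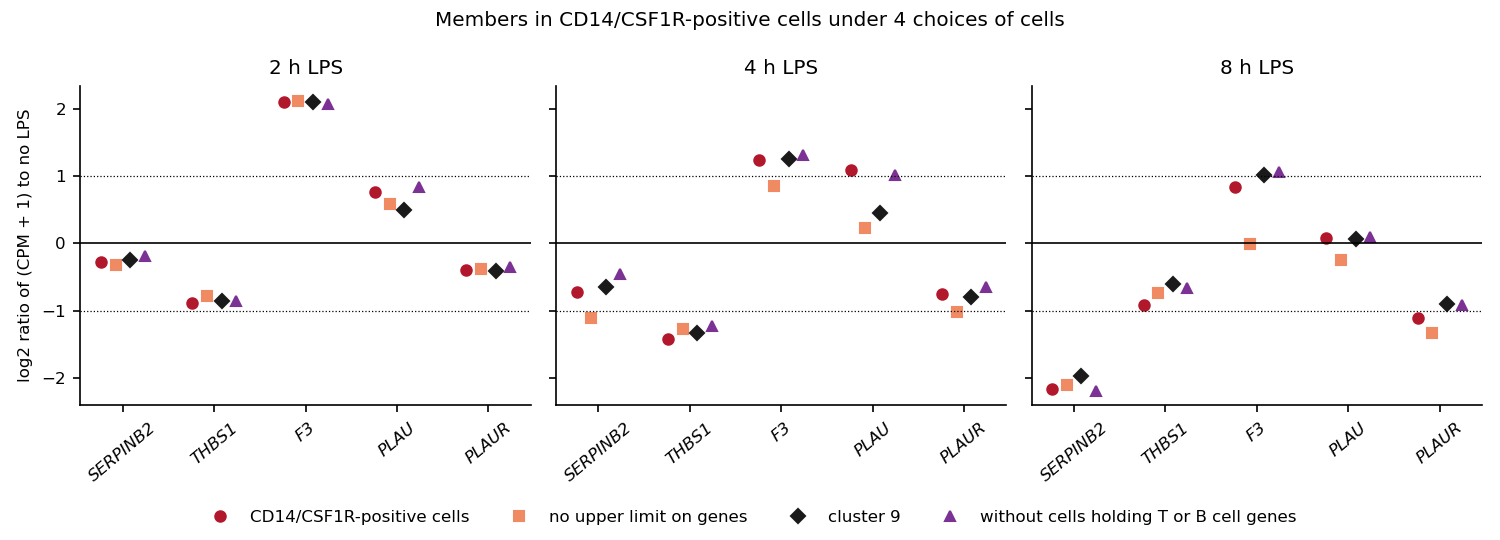
Log2 ratio to no LPS of each member at 2 h, 4 h and 8 h, with lines at 0 and at the 2-fold limits. Markers show CD14/CSF1R-positive cells, the same class without the limit on genes, cluster 9, and the class without cells holding T or B cell genes. In CD14/CSF1R-positive cells F3 lay at 2.10 at 2 h and SERPINB2 at -2.16 at 8 h, the values of that class farthest from 0.

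The inhibitor and thrombospondin 1 were carried almost wholly by CD14/CSF1R-positive cells until 4 h, whereas urokinase was shared with other cells. Of all SERPINB2 UMIs in a library, 97.5%, 96.7%, 96.3% and 65.2% lay in CD14/CSF1R-positive cells. The share was 96.7%, 95.6%, 89.3% and 68.6% for THBS1, and 97.3%, 81.3%, 76.5% and 68.9% for F3. PLAUR had 91.4%, 70.5%, 54.9% and 46.5% of its UMIs there, and PLAU 71.0%, 38.3%, 34.1% and 20.4%. These shares move with the number of cells in the class, and fewer cells of a class and less RNA per cell cannot be told apart in them. CSF3R-positive cells, at most 1.14% of the cells, held 3.32%, 14.9%, 22.8% and 13.7% of the PLAU UMIs. The shares also moved with the limit on genes, which left out 56.5% of the CD14/CSF1R-positive cells at 8 h. Without it the CD14/CSF1R-positive share was 98.5%, 98.0%, 98.5% and 92.9% for SERPINB2, 98.3%, 97.6%, 95.5% and 94.2% for THBS1 and 97.6%, 86.7%, 86.3% and 86.0% for F3. PLAUR then had 95.1%, 81.0%, 76.9% and 82.0% of its UMIs in that class and PLAU 82.7%, 51.9%, 50.04% and 59.4%, with 1.79%, 11.01%, 17.3% and 8.46% of the PLAU UMIs in CSF3R-positive cells. In cluster 9 the SERPINB2 share at 8 h was 62.5% and the PLAU share 17.1%.

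**Figure D4:**
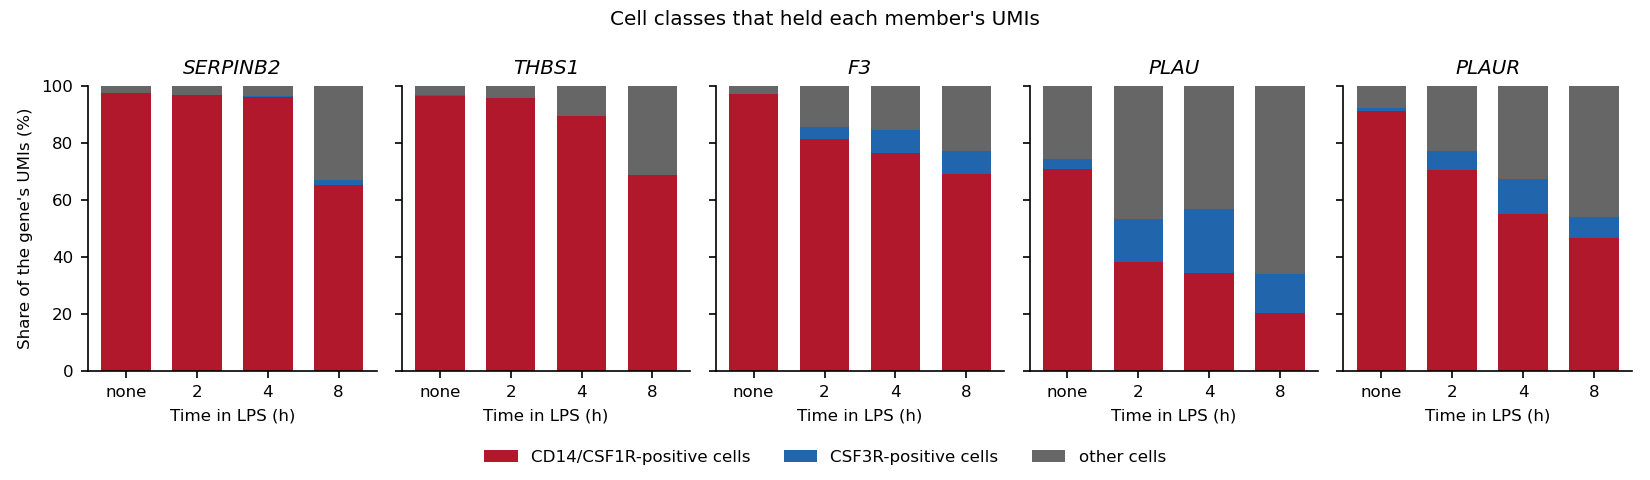
Share of each member's UMIs (%) found in CD14/CSF1R-positive, CSF3R-positive and other cells, by time in LPS; each bar is 1 library. SERPINB2 went from 97.5% in CD14/CSF1R-positive cells without LPS to 65.2% at 8 h, and PLAU from 71.0% to 20.4%, but without the limit of 3000 genes per cell the 8 h shares were 92.9% and 59.4%.

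In the other cells all 5 members were low. F3 was at 0.909, 10.6, 2.74 and 4.09 CPM, PLAU at 20.9, 50.3, 26.6 and 41.0 CPM, and PLAUR at 38.5, 47.0, 27.4 and 43.3 CPM. SERPINB2 was at 34.9, 14.5, 5.29 and 31.6 CPM and THBS1 at 57.3, 17.0, 12.6 and 83.2 CPM. At 2 h F3 and PLAU were called higher (2 of 5, against 0.977% of 11874 genes) and SERPINB2 and THBS1 lower (2 of 5, against 0.32%). At 4 h SERPINB2 and THBS1 were lower (2 of 5, against 1.08% of 11781 genes) and no member was higher (1.14%). At 8 h F3 was higher (1 of 5, against 0.888% of 11486 genes), though not among cells with at least 5000 UMIs (log2 ratio -0.073), and no member was lower (0.461%). Clusters rich in these genes changed in size among the other cells. Cluster 16, of which 66.6% were other cells, had 154, 500, 316 and 104 cells and 2668 PLAU UMIs at 2 h over all classes, and cluster 12, of which 90.8% were other cells, had 24, 60, 6 and 805 cells with THBS1 at 628 CPM at 8 h. Their part in these levels was not tested.

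The low levels were set beside those of monocyte markers outside the gate. SERPINB2 in other cells was 0.755%, 0.378%, 0.190% and 3.07% of its CD14/CSF1R-positive level. Of 11 such markers, 8, 7, 7 and 6 had at least 50 UMIs in the class, and their median was 2.92%, 2.35%, 2.32% and 5.77%, so SERPINB2 was below the median marker in each library. The markers ranged widely, from 0.499%, 0.383%, 0.292% and 1.28% for VCAN to 19.4%, 14.5%, 67.5% and 19.2% for CYBB. T cells, which should lack SERPINB2, still held 26.6, 9.71, 4.77 and 13.4 CPM of it in the CD3-positive other cells, and the part of free RNA was not tested. PLAU was 10.6%, 14.98%, 6.34% and 19.7% of its CD14/CSF1R-positive level, above the median marker and within the range of the markers except at 2 h and 8 h. Among other cells with exactly 1 CSF3R UMI, just under the class minimum, PLAU was at 671, 1671, 1208 and 848 CPM and PLAUR at 1188.0, 1312, 754 and 583 CPM, so cells left out by that minimum carried both genes. THBS1, also a platelet gene, was at 83, 33.7, 37.4 and 293 CPM in other cells with platelet transcripts and 57.1, 16.9, 12.5 and 80.2 CPM in those without.

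Further genes of the pathway came from a list of 54. In CD14/CSF1R-positive cells 27, 26 and 26 of them had enough UMIs to compare at 2 h, 4 h and 8 h, of which 1, 0 and 1 were higher (3.83%, 5.89% and 10.2% of all genes compared) and 10, 10 and 8 lower (12.2%, 8.23% and 4.11%). The median log2 ratio over those compared was -0.65, -0.70 and -0.51, beside the medians over all genes given above. In cluster 9 the list gave 1, 0 and 0 higher (3.6%, 5.01% and 4% of genes) and 10, 10 and 8 lower (12.5%, 7.66% and 8.72%), with medians of -0.59, -0.63 and -0.39. Lower in cluster 9 but not described below were ITGAM at each time, LRP1 at 2 h and 4 h, and ITGB2 at 4 h. So were GGCX at 2 h and 8 h (36, 2, 7 and 0 UMIs) and F2RL2 at 4 h and 8 h (77, 38, 4 and 2 UMIs). In CSF3R-positive cells only 8, 6 and 3 listed genes could be compared. Of these 1, 1 and 0 were higher (10.7%, 14.6% and 8.28% of genes) and 3, 2 and 0 lower (17.5%, 15.1% and 22.2%). In cluster 16, 16, 16 and 13 could be compared. Of these 0, 2 and 2 were higher (8.78%, 12.5% and 5.92% of genes) and 7, 6 and 4 lower (14.6%, 10.2% and 15.8%).

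Among the inhibitors of the list, TFPI2, a Kunitz-type inhibitor of plasmin and other proteases, was at 12.2, 31.1, 21.0 and 5.26 CPM in CD14/CSF1R-positive cells. It was called higher at 2 h and lower at 8 h, the latter from 5 UMIs. It and the genes named as called lower in the paragraphs that follow had the same calls in cluster 9.

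Genes whose products bind plasminogen or THBS1 and that were called lower included S100A10 and CD36. S100A10, which with ANXA2 forms a plasminogen receptor, was at 1351, 632, 473 and 614 CPM and called lower at each time, while ANXA2 was at 1863, 1588, 1321 and 1333 CPM with no call. ENO1, a glycolytic enzyme that also binds plasminogen at the cell surface, was at 863, 601, 566 and 715 CPM with no call. CD36 was at 491, 207, 105 and 259 CPM, called lower at 2 h and 4 h. CD47, the other THBS1 receptor, was at 365, 251, 212 and 309 CPM with no call.

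Several genes that act on clotting were called lower too, as were the listed genes MMP9 and SERPINB8. F13A1, the factor XIII subunit that cross-links fibrin, was at 296, 88.2, 39.3 and 102 CPM and lower at each time. THBD (thrombomodulin, which turns thrombin towards protein C) was at 35.0, 11.8, 17.8 and 25.2 CPM, lower at 2 h. FGL2, a fibrinogen-like prothrombinase, was at 87.3, 16.4, 16.8 and 58.9 CPM, lower at 2 h and 4 h. MMP9, a matrix metalloproteinase, was at 70.8, 2.51, 5.77 and 8.41 CPM and lower at each time. SERPINB8, a serpin of the same clade as SERPINB2, was at 64.3, 21.4, 17.3 and 11.6 CPM and lower at each time. The thrombin receptor gene F2R was higher at 8 h only (11.2, 16.8, 23.1 and 66.2 CPM), was not called in cluster 9, and was at 197 to 253 CPM in other cells. In cluster 16 F2R (8 UMIs without LPS, 18 at 8 h) and THBD (6 and 22 UMIs) were called higher at 8 h. No UMI in CD14/CSF1R-positive cells was found for 15 listed genes, which included PLG (plasminogen), F2 (prothrombin), F7 and F10, the plasma proteins made by the liver.

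The members' patterns over classes and libraries were described by Pearson's r of log2(CPM + 1) over 12 points, 3 classes in 4 libraries, which share their libraries and depth. THBS1 and SERPINB2 had r = 0.905, PLAU and PLAUR 0.908, and THBS1 and PLAU 0.0159. Among 10007 genes, those most like F3 were CCL20 (0.984), NLRC4 (0.984) and CCL3 (0.971), of which CCL20 and CCL3 are chemokines. Most like PLAU were NAIP (0.992), PPP1R15A (0.988) and NFKBIA (0.985), and most like PLAUR were ETS2 (0.994), MARCKSL1 (0.994) and ADGRE1 (0.990). Most like SERPINB2 were TPM4 (0.972), PMP22 (0.963) and ANXA5 (0.960), and most like THBS1 were the acute-phase gene SAA2 (0.993), CD9 (0.982) and CSF1R itself (0.976), a gene of the gate.

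In scATAC-seq, which counts transposase cuts in open chromatin, the no LPS library was far shallower (975012 counts over 3121 barcodes) than those at 2 h, 4 h and 8 h (30250143, 26837579 and 11957904 counts). Counts were summed over all barcodes, since CD14 was counted at 2 h and 4 h only. F3 had 3, 408, 471 and 216 counts, or 3.08, 13.5, 17.6 and 18.1 CPM. It was 4.38-fold higher at 2 h (1.49 to 21.3), 5.70-fold at 4 h (1.94 to 27.8) and 5.87-fold at 8 h (1.98 to 28.7), intervals made wide by the 3 counts. Most counts above 0 were even, and if each fragment gave 2 counts the intervals above and below are too narrow. The F3 folds would then reach down to 1.01, 1.32 and 1.34. F3 was the member called higher at 2 h (9.22% of 11374 genes compared), 4 h (8.23%) and 8 h (4.26%), and no member was called lower (5.87%, 4.63% and 5.67%). Between libraries of like depth, F3 was 1.30-fold higher at 4 h than at 2 h (1.14 to 1.49).

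PLAU had 81, 2360, 2089 and 883 counts, or 83.1, 78.0, 77.8 and 73.8 CPM, and PLAUR had 53, 2204, 2059 and 929 counts, or 54.4, 72.9, 76.7 and 77.7 CPM. PLAU was within 1.13-fold of no LPS at each time, with intervals that included no difference (0.752 to 1.19 at 2 h). PLAUR was 1.34-fold (1.02 to 1.80) to 1.43-fold (1.08 to 1.92) higher, under 2-fold, and with 2 counts per fragment the intervals would include no difference (0.966 to 2.20 at 8 h). Over the 352 barcodes without LPS that had at least 500 counts, F3 had 0 counts, PLAU was at 85.3 CPM and PLAUR at 14.7 CPM (5 counts). THBS1 was counted at 2 h only, with 59 counts (1.95 CPM). The identifier of SERPINB2 was not among the genes counted in any scATAC-seq library, so its accessibility could not be described.

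Barcodes with at least 4 counts on CD14 and CSF1R numbered 63 at 2 h and 40 at 4 h. PLAU was at 113 CPM (95.8 to 131) in them and 76.3 CPM in the rest at 2 h, and at 136 CPM (114 to 161) against 75.7 CPM at 4 h. F3 was at 24.6 CPM (17.1 to 34.2) against 12.9 CPM at 2 h and 28.8 CPM (19.1 to 41.6) against 17.1 CPM at 4 h. PLAUR was at 73.8 against 72.8 CPM at 2 h and 64.8 against 77.2 CPM at 4 h, with intervals that included the level of the rest. If each fragment gave 2 counts, the PLAU intervals would begin at 89.2 and 105 CPM, still above the rest, and the F3 intervals at 14.5 CPM at 2 h, above the rest, and 15.7 CPM at 4 h, below it. The median depth of these barcodes (18509 counts at 2 h) was above that of the rest (5088), and its part was not tested.

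**Figure D5:**
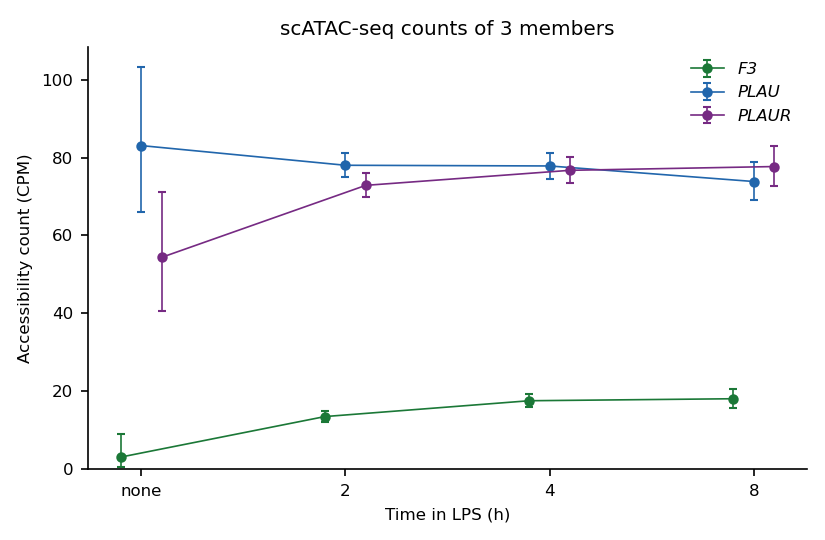
scATAC-seq counts of F3, PLAU and PLAUR per 1e6 counts (CPM) by time in LPS, summed over all barcodes; each point is 1 library and bars are 95% Poisson intervals. F3 went from 3.08 CPM, resting on 3 counts, to 18.1 CPM at 8 h, while PLAU stayed between 73.8 and 83.1 CPM.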

How the data were processed

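Cells were PBMCs from whole blood of pooled cattle, with 1 library per treatment and assay. For scRNA-seq the authors deposited unnormalized counts of UMIs in each barcode by gene (Cell Ranger, genome ARS-UCD1.2/bosTau9), and for scATAC-seq counts in each barcode by gene, with a counting rule not given in the sources used here. Between 88.7% and 93.8% of the scATAC-seq counts above 0 were even. Both were used as deposited.

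Cells were kept if they had between 200 and 3000 genes, 200 UMIs or more and less than 20% of UMIs from mitochondrial genes, which left more cells per treatment than the study lists. UMIs were summed per class and library and scaled to CPM, and 1 was added to each CPM in log2 ratios. No doublet caller was run, and class cells with T or B cell genes (152, 96, 49 and 54 CD14/CSF1R-positive cells) were removed as an alternative. Levels have exact Poisson intervals, ratios exact conditional binomial intervals and shares Clopper-Pearson intervals, all at 95%, with a floor of 3 counts for a 0. With 1 library per treatment no test was made and no p-value computed. Clusters came from the Leiden method in scanpy 1.11.5. Scaling by TMM (edgeR 4.0.16) and by DESeq2 1.42.0 size factors in R 4.3.3 was an alternative, and neither tool gave a test. The ratio step was tested on simulated data that held counting error only. Calls there were corrected for the known shift in totals, unlike the calls above, so that test does not bear on differences between libraries or in scaling. The work used Python 3.11.15.

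The members and gene lists were chosen with earlier results of these data known. Listed pathway genes were named by their values in CD14/CSF1R-positive cells, past 2-fold or among the 5 highest, or by their calls in a cluster. For CSF3R-positive cells only the counts of listed genes called are given. For each member the 3 most correlated genes with at least 200 UMIs were named as well. No sequence or coordinate was used. One listed gene is not reported here and was left out of the list's counts.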

Additional observations from a re-analysis of the deposited data

Results flagged for a closer look

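SERPINB2 at 8 h lay past 2-fold in opposite directions in the 2 myeloid classes. Its log2 ratio to no LPS was -2.16 in CD14/CSF1R-positive cells, from 40171 and 980 UMIs, and 2.03 in CSF3R-positive cells, from 10 and 29 UMIs. The difference was not tested, since each class had 1 library per treatment. The 29 UMIs lay in 3 of 17 cells, and without the limit on genes per cell the CSF3R-positive ratio was 0.23. In cluster 16, which held those cells, SERPINB2 was 1.44-fold that without LPS (0.881 to 2.39).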

How the results depend on the processing

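No paired analysis was possible because each treatment had 1 library. Of 563 log2 ratios of members recomputed under other settings, 378 stayed within their counting interval, 183 moved outside it and 2 that had been past 2-fold changed sign, namely PLAU at 8 h in CSF3R-positive cells (-0.16 without the limit on genes) and F3 at 8 h in other cells (-0.073 in cells with at least 5000 UMIs). The 378 include ratios that a setting could not change, so they overstate how stable the ratios were. Dropping the minimum of UMIs altered calls only. Leaving out cells that met both minima, or class cells with T or B cell genes, did not touch the other cells. The limit of 5000 UMIs was not applied to CSF3R-positive cells. Counting uncalled ratios too, 11 of 15 kept their sign under every alternative in CD14/CSF1R-positive cells, 8 of 11 in CSF3R-positive cells and 11 of 15 in other cells. In CD14/CSF1R-positive cells the F3 ratio at 2 h ranged from 2.02 to 2.52 and the SERPINB2 ratio at 8 h from -2.77 to -1.85, while PLAU at 4 h ranged from 0.22 to 2.01. SERPINB2 at 2 h, uncalled, reached 0.14 with DESeq2 size factors. Members called in that class came to 0 higher and 3 lower at 4 h without the limit on genes, and to 1 higher (F3) and 1 lower (SERPINB2) at 8 h with a class minimum of 4 UMIs, in cluster 9, in cells with at least 5000 UMIs, and without cells holding T or B cell genes. F3 was the 1 member higher at 4 h in cluster 9, in cells with at least 5000 UMIs, without cells meeting both minima, and without the limit on genes when cells holding T or B cell genes were also removed. At 2 h, 2 members (F3 and PLAU) were higher with TMM scaling, with DESeq2 size factors and with cells weighted equally, which also gave 1 lower (THBS1) at 2 h and 2 lower (SERPINB2 and THBS1) at 4 h. The causes were not tested. With TMM scaling 536 genes were higher and 530 lower at 2 h, against 333 and 1061, and 384 higher and 625 lower at 8 h, against 852 and 342. With DESeq2 size factors they were 580 and 458 at 2 h and 437 and 537 at 8 h. The alternatives with at least 5000 UMIs and without T or B cell genes were chosen after seeing the data. With 17 to 99 CSF3R-positive cells and 3 F3 counts in the scATAC-seq library without LPS, few cells and counts limited the precision of those ratios.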
